A study of Mus musculus with 3 samples.

Results

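Solute carriers are membrane proteins that move sugars, amino acids, nucleosides, vitamins, metals and other small solutes across the plasma membrane and across the membranes of lysosomes, mitochondria and the Golgi. Most use ion gradients or exchange 1 solute for another and do not hydrolyse ATP. In dendritic cells, which take up antigen, digest it and present it to T cells, such carriers supply the nutrients used after activation and export the products of digestion from endosomes and lysosomes. The genes described here are those whose annotated symbol begins with Slc and a number, without the glucose, lactate, arginine, cystine and iron carriers Slc2a1, Slc2a3, Slc2a6, Slc16a3, Slc7a2, Slc7a11, Slc40a1, Slc11a1 and Slc11a2. The array carried probes for 317 of them, and 148 were detected (detection p under 0.01) on at least 1 of 3 arrays, of 8055 named genes detected in all. Of the 148, 131 were detected on all 3 arrays, 7 on 2 arrays and 10 on 1 array. Members detected on 1 array only passed because they were brightest there, so the counts below are descriptions of the detected genes and not of the whole family. Symbols alone chose the members, and 4 detected ones encode no carrier: the scaffold proteins Slc9a3r1 and Slc9a3r2, the adaptor Slc4a1ap and Slc7a6os, a neighbour of Slc7a6.

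The cells were dendritic cells grown from bone marrow of DBA mice (age 6 weeks) in GM-CSF (20 ng/ml) and IL-4 (2 ng/ml), a culture known to contain macrophage-like cells as well. The imDC sample was the immature culture, with no stimulus or harvest time named in the labels. The tDC sample, labelled semi-mature or tolerogenic, received TNF-alpha (10 ng/ml) and type II collagen (50 µg/ml) for 4 h after 8 days of culture. The mDC sample, labelled fully mature, received lipopolysaccharide (1 µg/ml) and type II collagen (50 µg/ml) for 24 h, so stimulus and duration cannot be told apart. Each group was 1 sample on 1 array, so no test, p-value or standard error was possible, and a difference is given as higher or lower when it reached 2-fold. Levels are log2 normalized intensities of 1 probe per gene, and probes of different genes are not compared with each other.

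Median signals of the 3 arrays ran from 125 to 132 intensity units, and 10673 to 11006 of 25697 probes were detected. Of 12 dendritic cell markers 11 were detected in imDC and 10 on each of the other arrays, with Flt3 below background throughout and a summed linear level of 109434 in imDC, 116831 in tDC and 85770 in mDC. In mDC against imDC 0 of these 11 were higher at 2-fold and 3 were lower, namely Itgax (CD11c, 3.88-fold), H2-Ab1 (2.06-fold) and Cd209a (at least 2.24-fold). The maturation markers Ccr7, Cd86 and Cd83 were above imDC by 0.72, 0.52 and 0.26 on the log2 scale. Neutrophil markers (13 of 14 detected, without Mmp8) were higher for 7 of 13 genes in tDC than in imDC, and in mDC 6 were higher and 1 was lower. Their summed linear level was 68416 in imDC, 144021 in tDC and 182459 in mDC. Lcn2 (12.7-fold, at 15.98 in mDC) and Chil1 (21.8-fold, at 15.19) had the largest differences in mDC against imDC, and Cxcr2 was 4.42-fold lower. Mast cell and basophil markers (6 of 8 detected, without Mcpt4 and Tpsb2) summed to 4369, 12500 and 33539, with 5 of 6 at 2-fold above imDC in mDC. Hdc was 21.7-fold higher there, at 14.69, and the others were 1.99-fold to 3.05-fold higher. For macrophage and monocyte markers (6 of 7, without C1qa) the sums were 5822, 9870 and 28879, with 2 genes higher and 3 lower in mDC than in imDC. The 2 higher were Adgre1 (7.99-fold, at 13.96 in mDC) and Ly6c1 (7.62-fold, at 13.58). The 3 lower were C1qb (at least 6.74-fold), Mertk (4.99-fold) and C1qc (at least 3.31-fold). T and NK cell markers (4 of 6, without Cd8a and Ncr1) summed to 272, 338 and 450.0, B cell markers (2 of 3, without Ms4a1) to 164, 378 and 722, and of the erythroid markers only Hba-a1 was detected, in mDC. Each sum follows its brightest probes and does not count cells. The part of these marker shifts in the differences given below was not tested. In RNA from whole cultures, fewer cells of a type and less RNA per cell cannot be told apart.

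Among the carriers, the 24 h lipopolysaccharide sample stood farther from the immature culture than the 4 h TNF-alpha sample did. In tDC against imDC, 3 of 145 members were higher and 2 lower, or 3.45%, beside 4.9% of all 7884 genes compared. In mDC against imDC, 14 of 146 were higher and 12 lower, or 17.8%, beside 12.1% of 7973 genes. In mDC against tDC, 7 of 143 were higher and 6 lower, or 9.09%, beside 6.23% of 7831 genes. Without background correction, and likewise with the authors' processed values, the members at 2-fold numbered 2 higher and 0 lower in tDC against imDC, 8 and 8 in mDC against imDC, and 4 and 4 in mDC against tDC. With an offset of 50 there were 3 higher and 0 lower in tDC against imDC. In the main processing, 2.88% of all genes were higher and 2.02% lower in tDC against imDC. By direction these shares were 6.16% and 5.97% in mDC against imDC, and 3.44% and 2.8% in mDC against tDC. The median log2 difference of the members, bounds included, was -0.02, -0.00 and -0.01 in the 3 comparisons. That of all genes, which quantile normalization holds near 0, was 0, -0.00 and -0.02. With only genes detected on both arrays, the medians were -0.02, 0.00 and -0.02 for the members and -0.00, -0.01 and -0.02 for all genes. The median absolute log2 difference in mDC against imDC was 0.38 for the members and 0.30 for all genes. In all, 30 members reached 2-fold in at least 1 comparison and 118 in none, and 5 did so in both comparisons with imDC, which share the imDC array. The share of all genes at 2-fold in at least 1 comparison was not computed, so these counts have no background beside them.

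**Figure D1:**
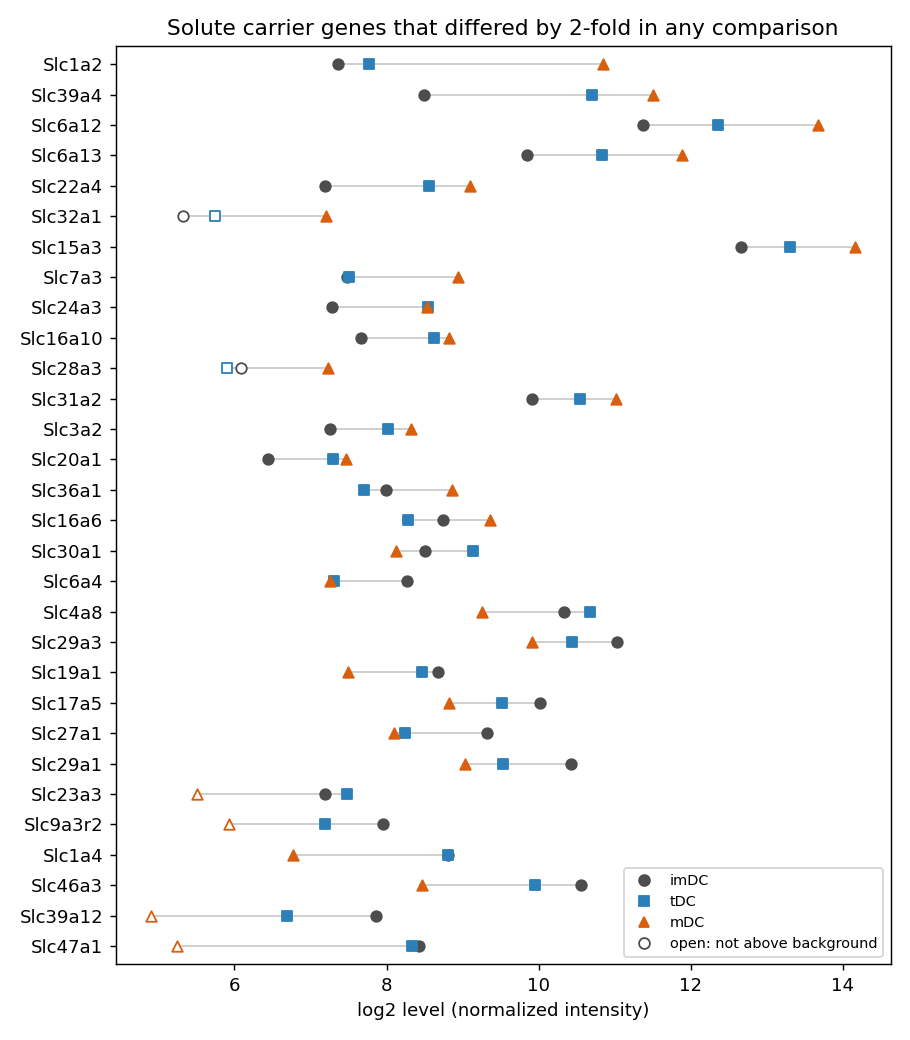
Log2 level (x axis, normalized intensity) of the 30 solute carrier genes that reached 2-fold in any comparison, ordered by mDC against imDC. Circles are imDC, squares tDC and triangles mDC, 1 array each, and open symbols were not above background; Slc1a2 at the top runs from 7.35 to 10.84, and Slc47a1 at the bottom is open in mDC only.

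Among amino acid and peptide carriers 8 of 23 members reached 2-fold in at least 1 comparison. The counts were 3 of 4 for nucleosides, 3 of 7 for taurine, creatine, betaine and neurotransmitters, and 3 of 8 for vitamins. For organic ions they were 3 of 10, for zinc 3 of 14 and for bicarbonate, chloride, sulfate and phosphate 2 of 11. Copper and magnesium had 1 of 4 and monocarboxylates 1 of 3. Fatty acids, protons with sodium and calcium, and the remaining genes had 1 of 5 each. None of the 26 mitochondrial, 16 nucleotide sugar and 7 sugar carriers reached 2-fold. These group counts also have no share of all genes beside them, so they describe the groups and do not rank them. Of the 22 amino acid and peptide carriers compared, 6 were higher in mDC than in imDC and 1 was lower, while 0 of 22 reached 2-fold in tDC. Their median log2 difference was 0.06 in tDC and 0.19 in mDC, both against imDC. Slc1a2 encodes a sodium-driven glutamate importer best known from astrocytes. It stood at 7.35 in imDC, 7.76 in tDC and 10.84 in mDC on the log2 scale, which made it 11.2-fold higher in mDC than in imDC and 8.45-fold higher than in tDC. Only the mDC array was high, and this was the largest difference of any member. A second probe of Slc1a2, detected on all 3 arrays, gave a log2 difference of 3.68 for mDC against imDC and a further one, detected on mDC alone, gave 3.64.

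The 1 member of this group that was lower in mDC was Slc1a4, which exchanges alanine, serine and other small neutral amino acids. Its log2 levels of 8.81 in imDC, 8.80 in tDC and 6.76 in mDC made it 4.13-fold lower in mDC than in imDC and 4.11-fold lower than in tDC. The imDC and tDC values were level with each other, and mDC was the low one. Slc15a3, an exporter of histidine and peptides from endosomes and lysosomes, had levels of 12.66, 13.30 and 14.16 in the same order of samples, a 2.83-fold difference between mDC and imDC with tDC between them. Its relative Slc15a4, the other detected carrier of this family, differed from imDC on the log2 scale by -0.12 in tDC and -0.36 in mDC. Slc7a3, an importer of arginine and other cationic amino acids, stood at 7.48, 7.50 and 8.93, with only mDC high (2.74-fold against imDC and 2.70-fold against tDC). The aromatic amino acid carrier Slc16a10, at 7.66, 8.63 and 8.82, was 1.95-fold higher in tDC and 2.23-fold higher in mDC than in imDC. Slc32a1, which loads GABA and glycine into vesicles of neurons, was above background on mDC only, where it was at least 2.15-fold higher than in imDC and at least 1.98-fold higher than in tDC.

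Slc3a2 encodes the heavy chain (CD98) that carries several exchangers of the Slc7 family to the cell surface. It had levels of 7.26 in imDC, 8.02 in tDC and 8.32 in mDC, and reached 2.09-fold in mDC against imDC. Of its light chains, Slc7a5, Slc7a6, Slc7a7 and Slc7a8 differed from imDC in both directions by less than 2-fold, while the cystine carrier Slc7a11, left out of the members, was 2.52-fold higher in tDC and 2.04-fold higher in mDC. Slc7a5, which exchanges large neutral amino acids such as leucine, was at 13.06, 12.51 and 12.64, lower than imDC on both stimulated arrays. Slc7a6, a light chain for cationic and neutral amino acids, had log2 differences from imDC of 0.44 in tDC and 0.67 in mDC, and Slc7a8, for neutral ones, of 0.33 and 0.64. For Slc7a7, the second exchanger of cationic and neutral amino acids, they were -0.57 and -0.80. A second probe of Slc7a7 gave -0.52 and -1.05, so that probe passed 2-fold where the brighter one did not. On the lysosomal side, Slc36a1, a proton-coupled exporter of small amino acids, went from 7.70 in tDC to 8.86 in mDC (2.22-fold), with imDC at 8.00 between them. The lysosomal glutamine carrier Slc38a7 had the smallest range of the group, 0.11 over the 3 arrays, and Slc38a9, the arginine sensor of the mTORC1 pathway, differed by -0.41 in tDC and -0.70 in mDC from imDC. Without background correction Slc16a10, Slc3a2 and Slc32a1 in mDC against imDC came to 1.87-fold, 1.70-fold and at least 1.52-fold, and Slc36a1 in mDC against tDC to 1.87-fold, all under the limit.

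Among zinc carriers, exporters of the Slc30 family lower cytosolic zinc and importers of the Slc39 family raise it. Of 21 genes on the array 14 were detected, and in mDC against imDC 1 was higher, 1 was lower and 12 were neither, with the same counts in tDC against imDC. Slc39a4, the importer through which the intestine absorbs dietary zinc, stood at 8.49 in imDC, 10.71 in tDC and 11.50 in mDC. It was 4.66-fold higher in tDC and 8.09-fold higher in mDC than in imDC, the largest difference of any member in the tDC comparison. The mDC and tDC arrays were both far above imDC and 1.74-fold apart. Slc39a12, an importer known mainly from brain, went the other way, with 7.86 in imDC and 6.69 in tDC (2.25-fold lower), and in mDC it was not above background (at least 3.04-fold lower than imDC). Without background correction these differences of Slc39a12 were 1.69-fold and at least 1.97-fold, and with detection p under 0.05 as the limit the latter bound was 4.68-fold.

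Slc30a1, the zinc exporter of the plasma membrane, was at 8.50 in imDC, 9.14 in tDC and 8.12 in mDC, so tDC was the high array and mDC was 2.03-fold lower than tDC. With no background correction that difference was 1.79-fold. Slc30a6, which acts with Slc30a5 in the early secretory pathway, was 1.82-fold higher in mDC than in imDC (0.87 on the log2 scale), while Slc30a5 itself differed by -0.48. The smallest range of the zinc group, 0.08, was that of Slc30a7, which fills the Golgi with zinc. The importers Slc39a1, Slc39a3, Slc39a6, Slc39a7, Slc39a11 and Slc39a13 differed from imDC by -0.53 to 0.45 in mDC. Slc39a10 was above background in imDC only, at 6.35, too close to the lowest detected level for a 2-fold bound.

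**Figure D2:**
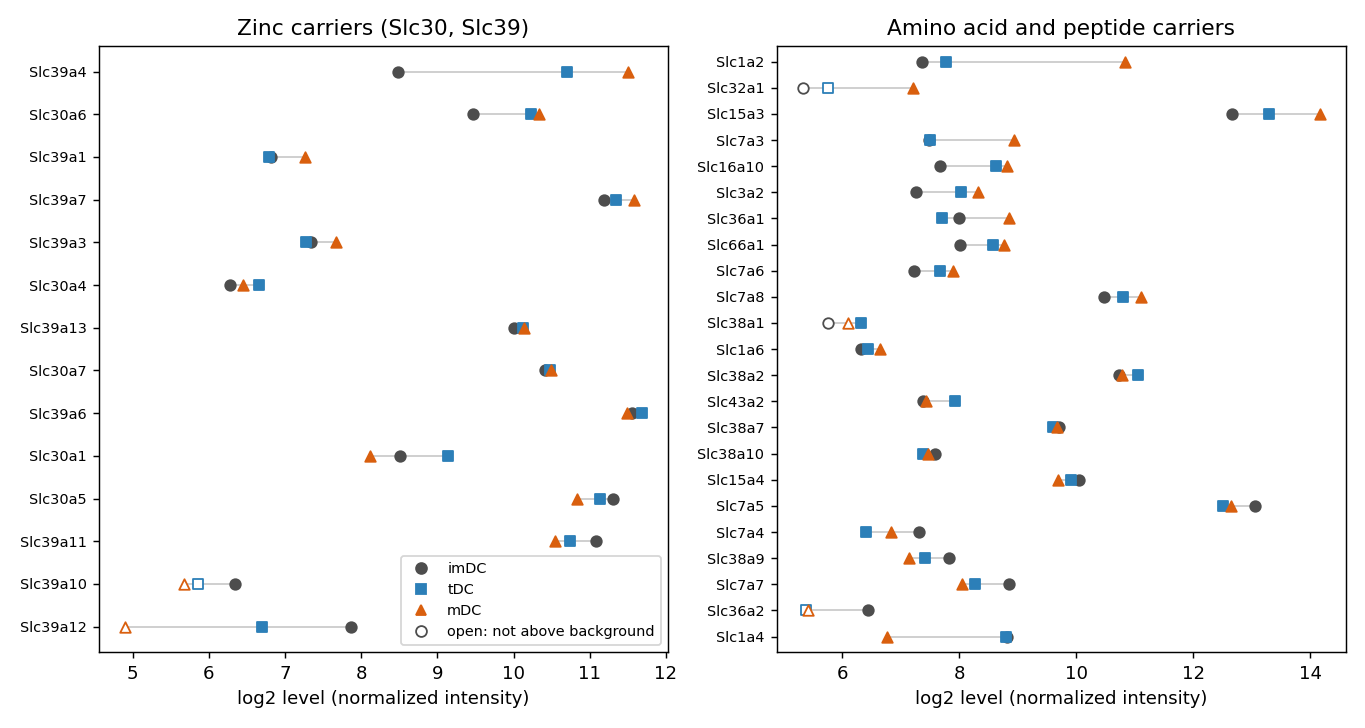
Log2 level (x axis, normalized intensity) of the 14 zinc carriers (left) and 23 amino acid and peptide carriers (right), each ordered by mDC against imDC, with imDC as circles, tDC as squares and mDC as triangles and open symbols not above background. Slc39a4 spreads from 8.49 to 11.50 and Slc1a2 from 7.35 to 10.84, and open symbols mark Slc39a10 and Slc39a12 among the zinc carriers.

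The Slc6 family imports taurine, creatine, betaine and neurotransmitters with sodium and chloride. Of 7 detected carriers of this group, which also holds Slc18a2, 2 were higher and 1 was lower in mDC than in imDC. The pair that was higher consists of neighbours in the RefSeq gene order on chromosome 6. Slc6a12, a carrier of the osmolyte betaine and of GABA, stood at 11.37 in imDC, 12.36 in tDC and 13.67 in mDC. Slc6a13, a carrier of GABA and taurine, stood at 9.85, 10.84 and 11.88. Both genes had their lowest level in imDC and their highest in mDC with tDC between: Slc6a12 was 4.91-fold and Slc6a13 4.09-fold higher in mDC than in imDC, and against tDC the differences were 2.48-fold and 2.06-fold. In tDC against imDC they were 1.98-fold and 1.99-fold higher, just under the limit. Slc6a4, the serotonin importer, was at 8.27 in imDC, 7.30 in tDC and 7.25 in mDC, with both stimulated arrays low, and 2.02-fold lower in mDC (1.66-fold without background correction). Slc18a2, which packs monoamines such as histamine into vesicles, was detected in mDC only, at 6.48. The taurine importer Slc6a6 (14.04, 13.76 and 13.73), the creatine importer Slc6a8 (10.55, 10.45 and 9.80) and the glycine importer Slc6a9, with the smallest range at 0.17, all stayed within 2-fold.

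Of 6 pairs of detected members that were next to each other, Slc6a13 with Slc6a12 was the only pair of which both reached 2-fold in mDC against imDC. Slc36a1 and Slc47a1 reached it in mDC against tDC beside Slc36a2 and Slc47a2, which were above background in imDC only.

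The start sites of Slc6a12 and Slc6a13 are shown because these neighbours had like differences from imDC on both arrays and because their windows were the ones with a kappaB match, the element bound by NF-kB, among members higher in mDC. RefSeq promoter windows (build GRCm38.p6) run from 250 bases before to 50 after a transcript start, and 121 of the 148 members had at least 1. The kappaB element was searched as GGG, any 2 bases and TTTCC, on both strands. It matched 1 of 5 windows of Slc6a12, chr6:121342324-121342623 on the plus strand, and 1 of 3 windows of Slc6a13, chr6:121303389-121303688 on the plus strand. Capitals mark the match, which does not overlap any other motif searched. The 1 window of Slc1a2, the member with the largest difference, held 0 matches to any motif searched and is not shown.
Slc6a12: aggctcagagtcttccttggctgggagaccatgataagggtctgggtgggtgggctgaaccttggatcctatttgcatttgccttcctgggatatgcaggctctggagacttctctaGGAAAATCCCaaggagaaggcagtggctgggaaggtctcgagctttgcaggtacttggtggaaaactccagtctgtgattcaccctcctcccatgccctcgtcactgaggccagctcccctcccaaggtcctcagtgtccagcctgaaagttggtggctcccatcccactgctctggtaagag
Slc6a13: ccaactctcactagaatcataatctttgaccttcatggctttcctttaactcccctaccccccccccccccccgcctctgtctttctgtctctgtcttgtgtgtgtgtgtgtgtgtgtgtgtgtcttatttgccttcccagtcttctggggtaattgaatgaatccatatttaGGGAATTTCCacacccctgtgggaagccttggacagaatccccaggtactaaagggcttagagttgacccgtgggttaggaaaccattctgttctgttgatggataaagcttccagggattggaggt

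Over the 19 windows of 11 members that were higher in mDC than in imDC, 2 held the kappaB letters, and over the 22 windows of members that were lower, 0 did. Over the 166 windows of all members these same 2 made 1.20%, beside 1.63% of all 32851 windows of RefSeq genes. The interferon-stimulated response element, searched as GAAA, any 2 bases and GAAA, and the amino acid response element, TGATGNAAT, were in 0 of these 19 and 0 of these 22 windows, with shares of 3.44% and 0.965% among all windows. The metal response element was searched in 1 form only, TGCGCNC, and forms with A as the fourth letter were not counted. That form was in 3 of the 19, in 5 of the 22, in 42 of the 166 (25.3%) and in 15.4% of all windows. All were searched on both strands, and a match of letters is not a bound site.

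Organic ion carriers and lysosomal anion carriers differed in both directions. Of 10 detected members, 1 was higher and 2 were lower in mDC than in imDC, and 1 was higher in tDC. Slc22a4, which imports the antioxidant ergothioneine, stood at 7.19 in imDC, 8.56 in tDC and 9.10 in mDC, and was 2.59-fold higher in tDC and 3.75-fold higher in mDC than in imDC. Its close relative Slc22a5, the carnitine importer, was at 9.57, 9.50 and 9.81, within 0.31 over the 3 arrays. Slc47a1, an exporter of organic cations in exchange for protons, was at 8.43 in imDC and 8.33 in tDC and not above background in mDC. There it was at least 4.51-fold lower than in imDC and at least 4.21-fold lower than in tDC, or at least 2.68-fold and 2.53-fold without background correction and at least 6.93-fold and 6.47-fold with detection p under 0.05 as the limit. Slc17a5, the lysosomal exporter of sialic acid, had levels of 10.02, 9.52 and 8.82 and was 2.29-fold lower in mDC than in imDC, with tDC between. Slc22a7, an organic anion carrier best known from liver and kidney, had the smallest range (0.25).

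The group of vitamin, folate and heme carriers was formed by symbol, and not every member is a shown carrier of these substrates. Of its 8 members, 2 were lower in mDC than in imDC and none was higher at 2-fold. Slc46a3, a carrier of the lysosomal membrane, stood at 10.56 in imDC, 9.95 in tDC and 8.46 in mDC, which was 4.28-fold lower in mDC than in imDC and 2.80-fold lower than in tDC. Slc19a1, the reduced folate carrier, was at 8.68, 8.47 and 7.49, with mDC the low array and 2.29-fold below imDC (1.88-fold without background correction). Slc23a3, a relative of the ascorbate carriers, had 7.19 in imDC and 7.48 in tDC and was not above background in mDC, at least 2.33-fold lower than in tDC (1.64-fold without background correction, 3.59-fold with detection p under 0.05 as the limit) and at least 1.91-fold lower than in imDC. The other 5 had ranges of 0.04 to 0.30 over the 3 arrays. The multivitamin importer Slc5a6 had the smallest range, 0.04. The riboflavin carrier Slc52a3 differed by 0.00 between mDC and imDC, and the thiamine carrier Slc19a2, the ascorbate carrier Slc23a2 and the lysosomal heme exporter Slc48a1 differed from imDC by -0.14, 0.13 and 0.05 in mDC.

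Nucleoside carriers were lower in mDC in 2 of 4 cases. Slc29a1, the equilibrative nucleoside carrier of the plasma membrane, stood at 10.43 in imDC, 9.52 in tDC and 9.03 in mDC (2.63-fold lower in mDC than in imDC). Slc29a3, its counterpart in lysosomes, stood at 11.03, 10.44 and 9.91 (2.16-fold lower). In both genes the order was imDC, tDC, mDC from high to low, and the tDC difference stayed under 2-fold. Slc28a3, a sodium-driven importer of nucleosides, was above background in mDC only, at least 2.19-fold higher than in imDC and at least 2.02-fold higher than in tDC, and at least 1.54-fold and 1.48-fold without background correction. Slc17a9, which loads ATP into vesicles, differed by -0.61 in mDC.

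Carriers of inorganic ions showed single differences. Slc24a3, which exports calcium with potassium in exchange for sodium, stood at 7.28 in imDC, 8.54 in tDC and 8.53 in mDC. Both stimulated arrays were high and level (2.41-fold and 2.39-fold higher than imDC, or 1.91-fold and 1.90-fold without background correction). The other 4 carriers of protons, sodium and calcium, namely Slc8a1, Slc8b1, Slc9a7 and Slc9a8, were above imDC on both arrays by less than 2-fold, from 0.08 to 0.80 on the log2 scale. Slc4a8, a sodium-driven exchanger of chloride and bicarbonate, was at 10.34 in imDC, 10.68 in tDC and 9.26 in mDC, lower in mDC by 2.11-fold against imDC and 2.67-fold against tDC. A second probe gave log2 differences of -1.11 and -1.25 for the same comparisons, and without background correction the first fold was 1.97. Slc20a1, a sodium-driven phosphate importer, was at 6.45, 7.30 and 7.46 and 2.02-fold higher in mDC than in imDC, but 1.52-fold without background correction. Among 11 members of that group the potassium-chloride carrier Slc12a7 had the smallest range (0.19), and Slc12a2, which imports sodium, potassium and chloride, differed from imDC by 0.66 in tDC and 0.64 in mDC.

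Of the 4 carriers of copper and magnesium, Slc31a2, a copper carrier of internal membranes, had levels of 9.91, 10.54 and 11.01 and was 2.14-fold higher in mDC than in imDC. The copper importer Slc31a1 went the same way by less, with log2 differences of 0.42 in tDC and 0.76 in mDC. Slc41a2 and Slc41a3, relatives of magnesium carriers, differed by -0.64 and -0.24 in mDC. Among 5 carriers of fatty acids and choline, Slc27a1, a fatty acid importer, stood at 9.32 in imDC, 8.25 in tDC and 8.10 in mDC. Both stimulated arrays were low, by 2.11-fold and 2.34-fold, and the first was 1.87-fold without background correction. Slc27a3 and Slc27a4 of the same family differed by -0.69 and 0.18 in mDC, and Slc44a2, a choline carrier, had the smallest range of the group (0.19).

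Monocarboxylate carriers were few once Slc16a3 was left out. Slc16a6, known from zebrafish liver as an exporter of ketone bodies, was at 8.75 in imDC, 8.28 in tDC and 9.36 in mDC and 2.11-fold higher in mDC than in tDC. A second probe gave 0.90 on the log2 scale, the mean of both was 1.99-fold, and without background correction the first was 1.88-fold. Slc16a9, at 6.34, 6.52 and 7.32, was 1.98-fold higher in mDC than in imDC, and Slc13a2, a carrier of citric acid cycle intermediates, was above background in imDC only, at 6.50. Among 7 sugar and polyol carriers none reached 2-fold in any comparison, and 5 of the 6 compared were below 0 in mDC against imDC, from Slc45a4 at -0.61 to Slc50a1, a sugar carrier with the smallest range (0.15), at -0.10. Slc9a3r2, a scaffold of the sodium-proton exchanger and no carrier itself, was at 7.96 in imDC and 7.19 in tDC and not above background in mDC, at least 3.24-fold lower than in imDC (at least 2.07-fold without background correction). Its relative Slc9a3r1 differed by 0.38, and Slc66a2 had the smallest range of the remaining genes (0.23).

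Mitochondrial and nucleotide sugar carriers showed no difference at 2-fold. The mitochondrial group was formed by symbol, from the Slc25 genes, and not every member is a shown mitochondrial carrier. None of these 26 genes reached 2-fold in any comparison, and all 26 were detected on all 3 arrays. Their log2 differences ran from -0.52 to 0.92 in tDC and from -0.86 to 0.73 in mDC, both against imDC, with medians of -0.05 and -0.07. Slc25a5, which exchanges ADP for ATP across the inner membrane, was at 14.50, 14.35 and 13.92, and the phosphate carrier Slc25a3 at 12.50, 12.19 and 12.13. The widest departures were those of Slc25a15, the ornithine carrier (7.36, 7.31 and 6.50, low in mDC only), and Slc25a29, a carrier of basic amino acids (6.28, 7.20 and 6.28, high in tDC only). The citrate exporter Slc25a1, by contrast, differed by -0.02 and 0.11, and Slc25a16 had the smallest range (0.11).

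Carriers of nucleotide sugars and acetyl-CoA feed glycosylation and acetylation in the Golgi and endoplasmic reticulum. This group was formed by symbol, from Slc33a1 and the Slc35 genes, and not every member is a shown carrier of these substrates. Likewise, none of its 16 members reached 2-fold. Their differences from imDC ran from -0.41 to 0.32 in tDC and from -0.50 to 0.39 in mDC, with medians of -0.02 and 0.01. Slc35e3 had a range of 0.05 over the 3 arrays, and the CMP-sialic acid carrier Slc35a1, at 10.65, 10.33 and 10.25, differed by -0.40 in mDC. Among all members, 36 of those detected on all 3 arrays had a range under 0.3. The same share over all genes was not computed.

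**Figure D3:**
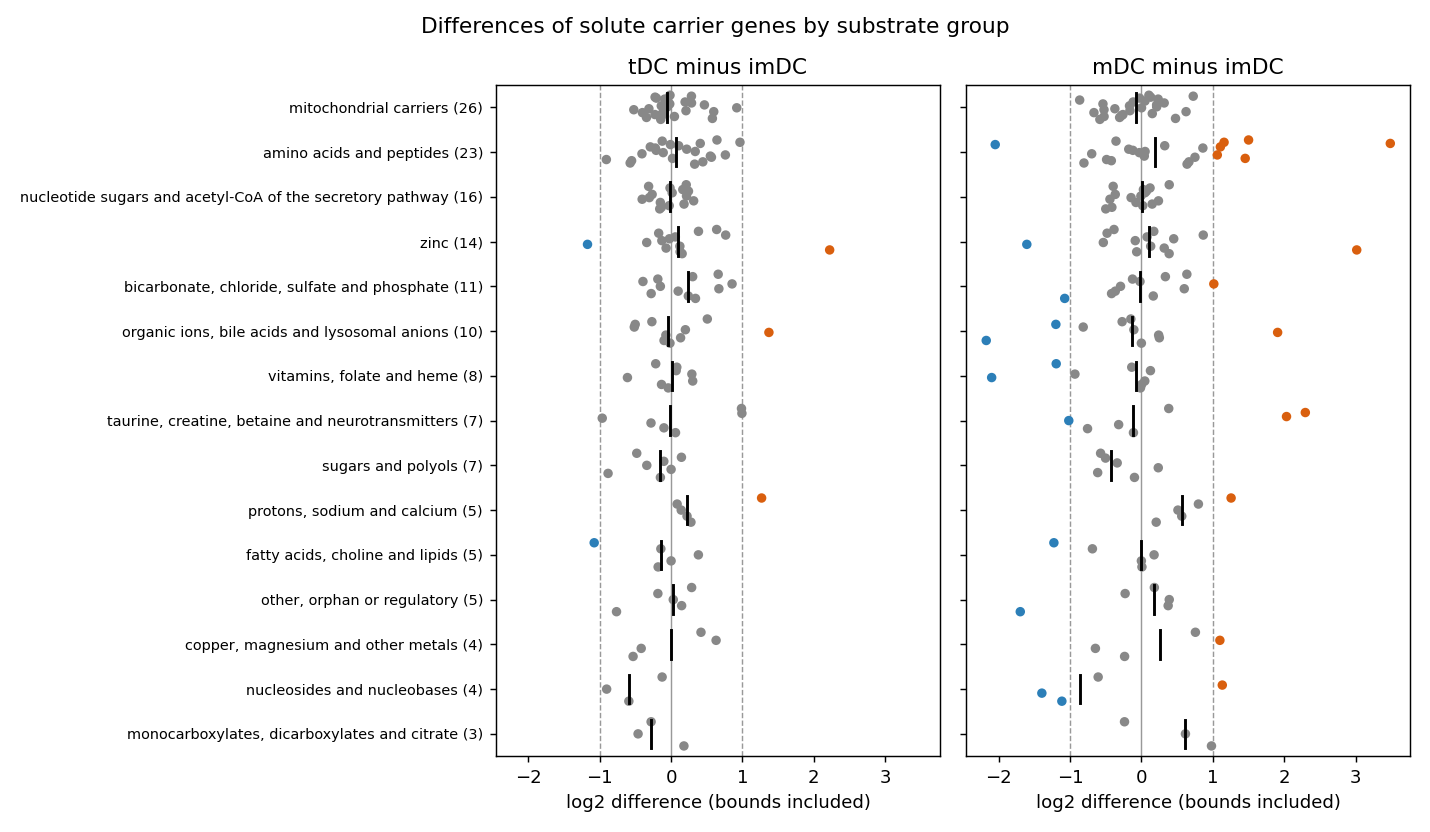
Log2 difference (x axis, bounds included) of each detected solute carrier gene in tDC against imDC (left) and mDC against imDC (right), by substrate group with the number of detected members; both panels share the imDC array. Orange points are higher and blue points lower at 2-fold, dashed lines mark 2-fold and black ticks the group medians; the 26 mitochondrial and 16 nucleotide sugar carriers lie between the dashed lines in both panels.

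Several differences lay close to the limit of 2-fold. In tDC against imDC the nearest members inside were Slc27a1 (2.11-fold lower), Slc39a12 (2.25-fold lower) and Slc24a3 (2.41-fold higher), and the nearest outside were Slc6a13, Slc6a12 and Slc16a10 (1.99-fold, 1.98-fold and 1.95-fold higher). In mDC against imDC they were Slc20a1, Slc6a4 and Slc3a2 inside (2.02-fold higher, 2.02-fold lower and 2.09-fold higher) and Slc16a9, Slc23a3 and Slc30a6 outside (1.98-fold higher, at least 1.91-fold lower and 1.82-fold higher). In mDC against tDC they were Slc28a3, Slc30a1 and Slc6a13 inside (at least 2.02-fold higher, 2.03-fold lower and 2.06-fold higher) and Slc32a1, Slc19a1 and Slc9a3r2 outside (at least 1.98-fold higher, 1.97-fold lower and at least 1.91-fold lower).

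Probes of the same gene gave the one measure of error within the arrays, which leaves out variation between cultures. Of the members, 32 had more than 1 kept probe. For mDC against imDC the log2 differences of the 2 brightest detected probes disagreed by a median of 0.12 over 31 members and by 1 or more for 0 of them, beside a median of 0.15 over 1814 genes in all. For tDC against imDC the median was 0.13 over 30 members. Among the members at 2-fold, only Slc1a2, Slc4a8 and Slc16a6 had more than 1 kept probe. Some had further probes that were not detected on any array and could not be compared. For Slc39a4, Slc7a3, Slc28a3 and Slc9a3r2, 1 of 2 probes on the array was kept, and for Slc47a1 1 of 4. Slc1a2 had 3 of 4 kept and Slc16a6 2 of 3.

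**Figure D4:**
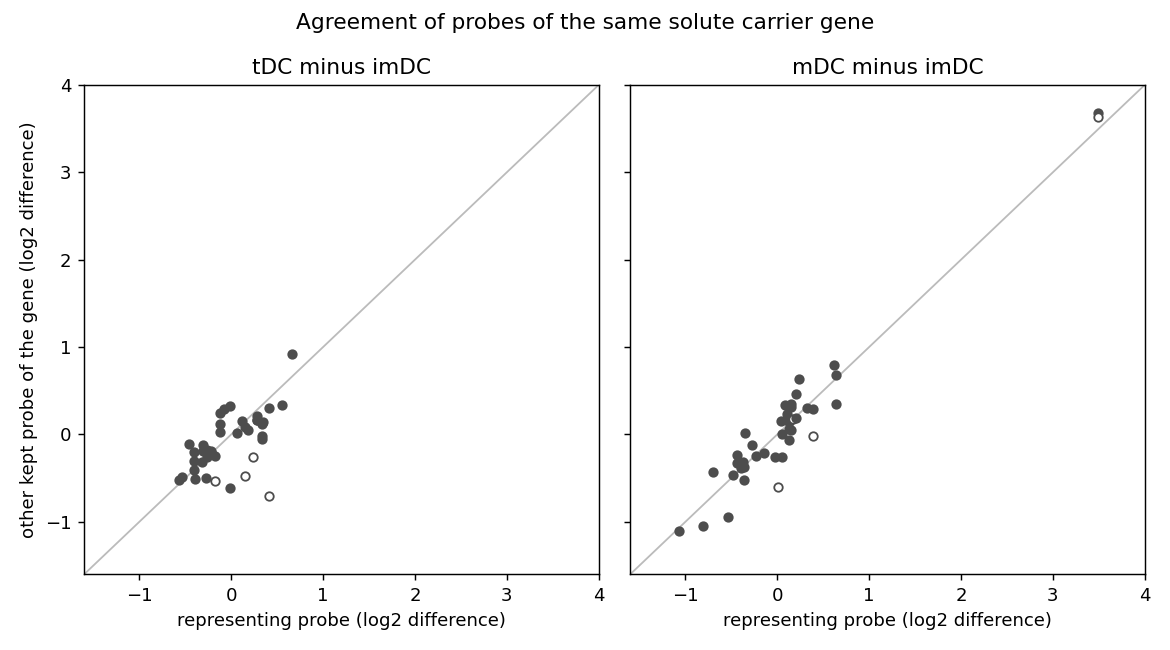
Log2 difference of the probe that represents a gene (x axis) against that of each other kept probe of the gene (y axis) for the 32 members with several, in tDC against imDC (left) and mDC against imDC (right). The line marks equal values and open points are probes not detected on every array; the points at the top right of the second panel are the probes of Slc1a2, at 3.49 against 3.68 and 3.64.

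Carriers with other symbols and related membrane proteins, aquaporins among them, were described in the same way from a list of 59, of which 29 were detected. In tDC against imDC 2 of 29 were higher and 3 lower, and in mDC against imDC 5 were higher and 4 lower, with medians of -0.12 and -0.11. Of all genes, 2.88% were higher and 2.02% lower in tDC, and 6.16% and 5.97% in mDC, both against imDC. Slco3a1, an importer of organic anions, stood at 8.35 in imDC, 10.23 in tDC and 10.89 in mDC (5.85-fold higher in mDC than in imDC), while its relative Slco2b1 went from 8.85 to 7.17 in tDC and was not above background in mDC (at least 6.01-fold lower). Mfsd7a, at 8.51, 10.67 and 10.85, was 5.08-fold higher in mDC, and Spns3, Mfsd2a, an importer of lysophospholipids, and Slco4a1 were 3.35-fold, 2.34-fold and 2.21-fold higher. Aqp3, a channel for water and glycerol that the list also held, was at 10.39, 9.01 and 6.98 (10.6-fold lower in mDC than in imDC). Flvcr2, a relative of the heme exporter Flvcr1, was 7.05-fold lower, and Xpr1, the phosphate exporter, 2.10-fold lower. Of the accessory proteins of carriers, Nptn and Ostm1 differed from imDC by -0.05 and -0.44 in mDC, and the probes of Bsg and Emb were not above background.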

How the data were processed

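Total RNA (550 ng a sample, per the labels' protocols) of 3 samples, grouped by labelled cell type, was hybridised to 1-colour Illumina mouse bead arrays. The authors deposited an average signal per probe, a linear intensity that was not normalized, and a detection p-value, per the file headers. The submitters' processing notes name the program GenomeStudio 2011.1. A second deposited table held log2 intensities whose ranks matched the signals (Spearman correlation 1 on each array) and whose 3 columns had the same median, 6.98; it served as an alternative.

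Signals were background corrected with normexp (parameters from the detection p-values, offset 16), quantile normalized and taken to log2 (limma 3.58.1, R 4.3.3). The kept probe with the highest mean level (detection p under 0.01 on at least 1 array) represented a gene. The platform annotation named 23978 of 25697 probes with 1 gene, and all 148 member symbols matched the RefSeq table of assembly GRCm38.p6. A difference was called at 2-fold. Where only 1 of the 2 arrays had a gene above background, the fold is a bound ("at least") against the higher of the lowest detected level there and its own. A bound on the wrong side of 0 was set to 0, and bounds entered the counts and medians. No fold was given where both arrays were below background. The normalization and the 2-fold call were tested on simulated arrays, with changes placed in bright probes only. The bounds and the choice of 1 probe per gene were not part of that test.

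The members, substrate groups and other lists were chosen with earlier results of these data known. Slc7a6os and Slc4a1ap were moved to the remaining genes after values were seen. Named members were those at 2-fold in any comparison, the member with the smallest range of each group, those nearest the limit and all of groups with under 4 genes; other members were named after their values were seen, as relatives of these.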

Additional observations from a re-analysis of the deposited data

How the results depend on the processing

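Of 44 member differences at 2-fold over the 3 comparisons, 18 went under 2-fold in at least 1 alternative and 0 changed direction. Without background correction 18 did so, as with the authors' processed values, against 10 with an offset of 50, 3 with median scaling and 1 when the probes of a gene were averaged. The filters (detection p under 0.05 on 1 array, or under 0.01 on all 3) took none under 2-fold, though the stricter one left 35 of the 44 to compare. The members at 2-fold in tDC against imDC numbered 5, and 2 without background correction, 3 with an offset of 50 and 2 with the authors' values. In mDC against imDC 26 became 16 both without background correction and with the authors' values, and in mDC against tDC 13 became 8 in both. The cause was not tested. The members' counts under the other alternatives stayed within 1.5 times, and their median log2 differences ran from -0.09 to 0.00. Of the bounds, that of Slc47a1 in mDC against imDC ran from 2.68-fold to 6.93-fold. No paired analysis was possible because each group held 1 sample, and leaving out a sample was not possible for the same reason. The depth of single values is set by the background: genes near the lowest detected log2 level (6.10 to 6.26 by array) could give only small bounds.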
